A study of Mus musculus with 12 samples.

Results

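The genes described here act in pyroptosis and necroptosis, the lytic forms of programmed cell death. They were chosen by name: Casp1, Casp4, Casp8, Gsdmd, Nlrp3, Aim2, Zbp1, Ripk1, Ripk3 and Mlkl, 10 of the 47719 genes in the deposited table. All 10 were found, and 8 of them were among the 14109 genes tested. RNA was sequenced from kidney cortex in 12 libraries; the mice were C57BL6/J males, for which the labels give an age of 8 weeks. The 4 groups of 3 libraries were pair-fed mice given saline (PF), pair-fed mice given lipopolysaccharide (PF4hLPS), ethanol-fed mice given saline (EtOH) and ethanol-fed mice given lipopolysaccharide (EtOH4hLPS). All mice had a liquid diet for 6 weeks. In the ethanol groups this was a Lieber-DeCarli diet raised in steps to 6% ethanol, and in the pair-fed groups maltose-dextrin replaced the ethanol at equal calories. Lipopolysaccharide (LPS), an outer membrane component of Gram-negative bacteria, came from E. coli and was injected intraperitoneally at 10 mg/kg, 4 h before the tissue was taken. No group carried a mutation or transgene. The labels name the source as whole kidney and the region as cortex. They do not say that replicates came from separate mice, so the p-values refer to the spread among libraries, which may be technical.

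In pyroptosis, sensors such as Nlrp3 and Aim2 assemble inflammasomes that activate Casp1, while Casp4, the mouse caspase long called caspase-11, binds LPS in the cytosol. These caspases cleave Gsdmd, whose freed fragment forms pores in the plasma membrane. In necroptosis, Ripk1 or the nucleic acid sensor Zbp1 engages Ripk3, which phosphorylates Mlkl, and Mlkl then breaks the membrane; Casp8 cleaves Ripk1 and Ripk3 and so restrains this route. Cleavage, phosphorylation and assembly of these proteins are not seen in RNA levels.

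Values are FPKM, fragments per kilobase of gene model scaled between libraries, as the authors deposited them. Scaling the libraries again by their median ratio to the gene means moved the median LPS fold change over all genes little. The shifts were -0.00343 under pair-feeding and 0.00469 under ethanol, so the values were already close to that scale. Fold changes are differences of log2(FPKM + 1), with the standard error (SE) of a limma fit to all 12 libraries, and they understate the change of genes at low FPKM. Adjusted p-values are from limma with Benjamini-Hochberg adjustment over the 14109 genes, with a threshold of 0.05. The scaling factor of a library relative to the first PF library was read from the steps between low values. It was 0.491 to 1.2 over the libraries and at most 0.762 in the 6 LPS libraries. It is not a measure of sequencing depth, which is unknown. GC-rich genes were low in PF4hLPS library 2, EtOH4hLPS library 1 and PF library 1 relative to their groups, with slopes of -0.412, -0.308 and -0.248 log2 units per 10 percentage points of GC, against -0.0769 to 0.214 in the other libraries. Of the proximal tubule markers, Kap was at 39343 to 105635 FPKM per library, and the other 9 summed to 1775 to 2879. In whole tissue, fewer cells of a type and less RNA per cell cannot be told apart.

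RefSeq promoters, 250 bases before and 50 after a start site on GRCm38.p6, were held for 8 of the 10 genes in 11 entries. They were searched on both strands for the core of the interferon-stimulated response element (GAAANNGAAA) and for the NF-kB consensus. Of 32851 promoters, 3.44% held the first and 4.51% the second. Shown are the promoters of Casp4 and Mlkl, which were among the 3 genes of the set that responded most to LPS, with and without a match, and of Ripk1, which held an interferon motif at its start site; capitals mark the matches.
Casp4, chr9:5308599-5308898, plus strand: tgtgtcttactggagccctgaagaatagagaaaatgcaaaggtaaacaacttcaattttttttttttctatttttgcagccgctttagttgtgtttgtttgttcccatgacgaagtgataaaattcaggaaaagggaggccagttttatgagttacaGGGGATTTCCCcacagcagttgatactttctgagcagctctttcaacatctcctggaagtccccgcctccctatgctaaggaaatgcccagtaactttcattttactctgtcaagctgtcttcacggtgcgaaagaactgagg
Ripk1, second entry, chr13:34002624-34002923, plus strand: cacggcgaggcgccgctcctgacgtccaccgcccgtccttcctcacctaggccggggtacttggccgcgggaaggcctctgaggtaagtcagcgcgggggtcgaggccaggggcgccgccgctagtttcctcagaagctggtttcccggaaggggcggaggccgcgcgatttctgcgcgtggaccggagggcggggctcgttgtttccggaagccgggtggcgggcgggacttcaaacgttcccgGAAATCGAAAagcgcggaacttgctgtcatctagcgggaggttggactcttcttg
Mlkl, chr8:111338156-111338455, minus strand: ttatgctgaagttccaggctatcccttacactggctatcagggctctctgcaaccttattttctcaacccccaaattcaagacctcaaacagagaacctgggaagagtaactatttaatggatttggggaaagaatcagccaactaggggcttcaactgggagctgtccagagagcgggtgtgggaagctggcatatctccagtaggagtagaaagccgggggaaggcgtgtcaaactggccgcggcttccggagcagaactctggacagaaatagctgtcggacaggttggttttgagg
In Casp4 the NF-kB consensus matched at overlapping positions from -93 to -83, counted from the start site, and the same letters lie in the second Casp4 entry. In Ripk1 the interferon motif spanned the start site, at -5 to 5, and overlapped no NF-kB match. The first Nlrp3 entry held the NF-kB consensus at -186 to -177. None of these letters were found in the windows of Casp1, Casp8, Aim2, Ripk3 or Mlkl. A match describes letters and is neither a site in use nor a cause.

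**Figure D1:**
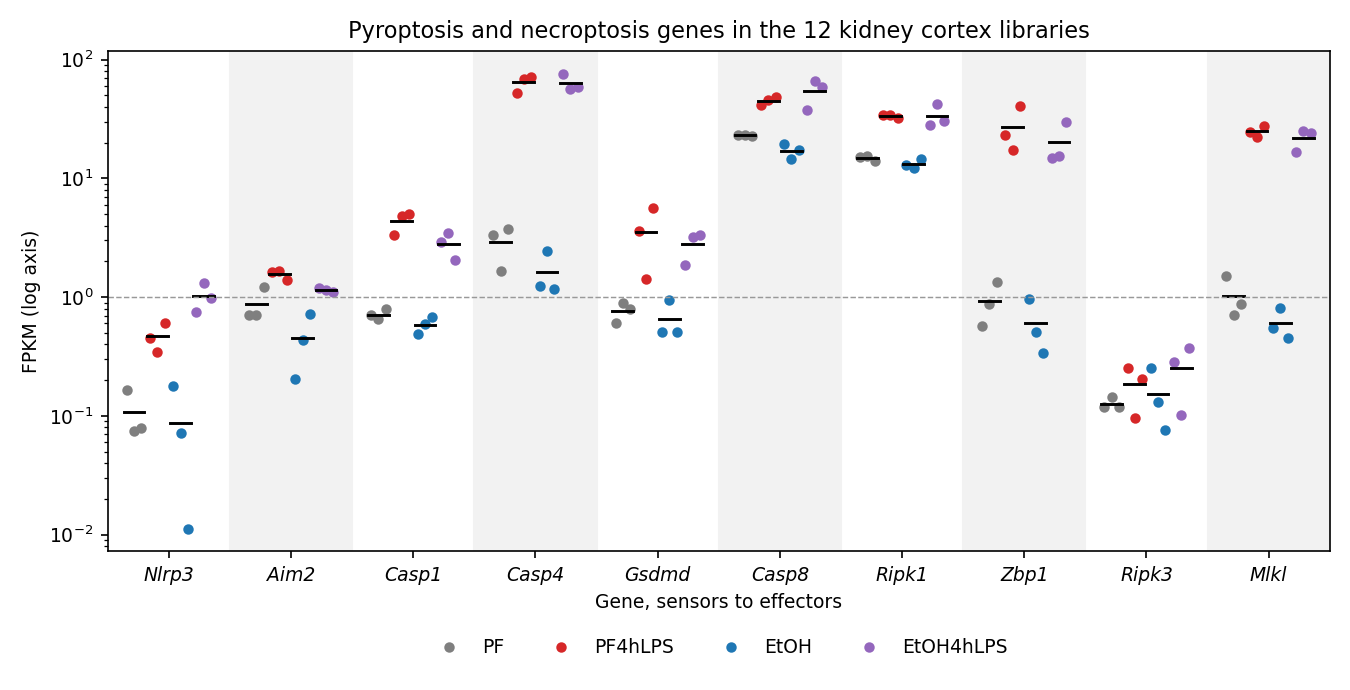
FPKM (log axis) of the 10 genes, with 1 point per library and a bar at the mean of each group of 3 libraries. The dashed line marks 1 FPKM; in 9 genes every LPS library lies above every saline library of its diet, and Ripk3 is at most at 0.373 FPKM in all 12 libraries.

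Most of these genes were higher after LPS in both diets. In 9 of the 10 genes, all but Ripk3, the 3 LPS libraries lay above the 3 saline libraries within each diet, where 18.5% of all genes tested did so under pair-feeding and 18.8% under ethanol. In pair-fed mice, 7 of the 10 genes passed the test as higher, Aim2 did not, and Nlrp3 and Ripk3 were too low to be tested. In ethanol-fed mice 8 passed as higher. The shares of all genes tested were 11.3% higher and 6.89% lower in pair-fed mice, and 10.7% higher and 6.39% lower in ethanol-fed mice, and no gene of the set was lower. A gene was tested where at least 3 libraries reached 1 FPKM. Casp1 and Gsdmd reached that in none of the 6 saline libraries, and Aim2, Zbp1 and Mlkl in 1, so these 5 were tested because they were high after LPS and their calls say nothing of how often such genes respond. Over all 10 genes, Nlrp3 and Ripk3 taken from a fit without the filter, the median fold change was 1.19 under pair-feeding and 1.25 under ethanol, beside -0.01 and 0.02 over all genes tested.

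The sensors differed widely in level. Nlrp3 (ENSMUSG00000032691, chr11:59541568-59566956, plus strand), which senses potassium loss and other cell damage, was at 0.166, 0.0750 and 0.0794 FPKM in PF and at 0.455, 0.342 and 0.606 in PF4hLPS. In ethanol-fed mice it was at 0.179, 0.0718 and 0.0112 FPKM after saline and at 0.749, 1.32 and 0.984 after LPS. The groups did not overlap in either diet, yet only 1 library reached 1 FPKM. Without the filter on low values, the fold change in limma was 0.40 ± 0.13 (SE) in pair-fed mice, with an adjusted p of 0.117, and 0.88 ± 0.13 in ethanol-fed mice, with an adjusted p of 0.00222. On the FPKM scale the means were 4.38 and 11.6 times those after saline.

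Aim2 (ENSMUSG00000037860, chr1:173350879-173466040, plus strand), which binds DNA in the cytosol, was at 0.704, 0.707 and 1.22 FPKM in PF and at 1.62, 1.65 and 1.41 in PF4hLPS. Its values were 0.204, 0.435 and 0.716 in EtOH and 1.19, 1.16 and 1.10 in EtOH4hLPS. The LPS libraries lay above the saline libraries in both diets. The fold change was 0.46 ± 0.17 (SE; limma adjusted p = 0.0893) in pair-fed and 0.58 ± 0.17 (limma adjusted p = 0.0368) in ethanol-fed mice. The second call was lost in 13 of 23 alternative settings, with adjusted p from 0.0251 to 0.159 over them.

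Zbp1 (ENSMUSG00000027514, chr2:173206612-173218923, minus strand), an interferon-inducible sensor of Z-form nucleic acids, was at 0.572, 0.882 and 1.33 FPKM in PF and at 23.1, 17.3 and 41.0 in PF4hLPS. After ethanol it was at 0.966, 0.510 and 0.338 FPKM without LPS and at 14.9, 15.5 and 29.9 with it. Every LPS library was far above every saline library, while library 3 was the highest of both LPS groups. Zbp1 rose by 3.80 ± 0.33 (limma adjusted p = 7.16e-06) in pair-fed and by 3.66 ± 0.33 (limma adjusted p = 9.99e-06) in ethanol-fed mice, 29.2 and 33.2 times in mean FPKM.

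The neighbouring genes of the inflammatory caspases responded to different extents. Casp4 (ENSMUSG00000033538, chr9:5308828-5336783, plus strand) starts 1562 bases downstream of Casp1 (ENSMUSG00000025888, chr9:5298517-5307265, plus strand). Casp4 was at 3.31, 1.66 and 3.74 FPKM in PF and at 52.8, 68.4 and 71.7 in PF4hLPS. In ethanol-fed mice Casp4 was at 1.24, 2.46 and 1.16 FPKM after saline and at 76.3, 56.8 and 58.7 after LPS. It was the gene of the set with the highest mean in both LPS groups, from a low level after saline. Casp4 rose by 4.10 ± 0.26 (limma adjusted p = 3.50e-07) in pair-fed and by 4.65 ± 0.26 (limma adjusted p = 1.12e-07) in ethanol-fed mice, 22.2 and 39.4 times in mean FPKM.

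Casp1, the caspase that matures interleukin-1 beta and interleukin-18, was at 0.701, 0.648 and 0.788 FPKM in PF and at 3.36, 4.78 and 5.00 in PF4hLPS. Its values were 0.492, 0.593 and 0.679 in EtOH and 2.93, 3.50 and 2.04 in EtOH4hLPS. No LPS library overlapped a saline library, and the highest value was 5.00 FPKM. Casp1 rose by 1.64 ± 0.18 (limma adjusted p = 5.01e-05) in pair-fed and by 1.25 ± 0.18 (limma adjusted p = 0.000473) in ethanol-fed mice. The ratio of Casp4 to Casp1 FPKM within a library was 2.56 to 4.74 in PF and 14.3 to 15.7 in PF4hLPS. In EtOH it was 1.71 to 4.15, and in EtOH4hLPS 16.2 to 28.8.

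Gsdmd (ENSMUSG00000022575, chr15:75862327-75867408, plus strand), the pore-forming substrate of both caspases, was at 0.602, 0.889 and 0.795 FPKM in PF and at 3.57, 1.43 and 5.64 in PF4hLPS. In ethanol-fed mice it was at 0.513, 0.940 and 0.506 FPKM after saline and at 1.88, 3.20 and 3.36 after LPS. The groups did not overlap, but the PF4hLPS libraries were spread widely. The lowest LPS value, 1.43, came from PF4hLPS library 2, which had the lowest scaling factor and was lowest in GC-rich genes. The GC content of Gsdmd transcripts is 54.4%. Gsdmd rose by 1.25 ± 0.31 (limma adjusted p = 0.0151) in pair-fed and by 1.19 ± 0.31 (limma adjusted p = 0.0200) in ethanol-fed mice. Without PF4hLPS library 2 the pair-fed value was 1.65 ± 0.24 (limma adjusted p = 0.000550), and without PF4hLPS library 3 it was 0.92 ± 0.28 (limma adjusted p = 0.0502). The ethanol-fed call was lost without EtOH library 1 or 3 or EtOH4hLPS library 2 or 3, with limma adjusted p of 0.0714, 0.0684, 0.0729 and 0.0762. Without the filter on low values both calls were lost, with limma adjusted p of 0.0502 under pair-feeding and 0.0648 under ethanol. The pair-fed call was also lost with only the compared groups in the fit (limma adjusted p = 0.0644). Whether GC content, scaling or depth had a part in these values was not tested.

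Casp8 and Ripk1, where the routes to apoptosis and necroptosis part, were the members expressed most after saline. Casp8 (ENSMUSG00000026029, chr1:58795374-58847503, plus strand) was at 23.2, 23.3 and 22.7 FPKM in PF and at 41.6, 45.3 and 48.7 in PF4hLPS. It was at 19.4, 14.6 and 17.2 FPKM in EtOH and at 37.8, 66.3 and 58.5 in EtOH4hLPS. The LPS libraries were higher in both diets, with a wide spread in EtOH4hLPS. Casp8 rose by 0.94 ± 0.20 (limma adjusted p = 0.00699) in pair-fed and by 1.58 ± 0.20 (limma adjusted p = 0.000177) in ethanol-fed mice.

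Ripk1 (ENSMUSG00000021408, chr13:34002363-34037147, plus strand), the kinase and scaffold of TNF receptor complexes, was at 15.1, 15.4 and 14.0 FPKM in PF and at 34.2, 34.2 and 32.5 in PF4hLPS. After ethanol it was at 13.0, 12.3 and 14.7 FPKM without LPS and at 28.2, 42.2 and 30.5 with it. All LPS libraries were above all saline libraries, and the PF4hLPS libraries lay close together. Ripk1 rose by 1.13 ± 0.16 (limma adjusted p = 0.000476) in pair-fed and by 1.26 ± 0.16 (limma adjusted p = 0.000218) in ethanol-fed mice. Its exons share 241 bases with Serpinb6a on the opposite strand, which had mean FPKM of 16.2 in PF, 25.8 in PF4hLPS, 20.2 in EtOH and 27.5 in EtOH4hLPS. The kit marks strand, but no source used here gives the strand setting of the counting, so some Ripk1 fragments may belong to Serpinb6a. Its exons also share 511 bases on the same strand with Gm17084, a processed pseudogene at no more than 1.56 FPKM in the mean of any group.

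The calls of Casp8 and Ripk1 in pair-fed mice depended on the scaling between libraries. With every library scaled to equal total FPKM, the fold changes were 0.45 (limma adjusted p = 0.191) for Casp8 and 0.65 (limma adjusted p = 0.0591) for Ripk1. Gsdmd was then at 0.95 (limma adjusted p = 0.0504), and 4 members passed instead of 7. That scaling moved the median of all genes by -0.40 under pair-feeding and -0.29 under ethanol. It changed the calls over all genes from 1589 higher and 972 lower to 841 and 2685 in pair-fed mice, and from 1504 and 902 to 968 and 1862 in ethanol-fed mice. Equal protein-coding FPKM gave 1020 higher and 2387 lower in pair-fed and 1016 and 2371 in ethanol-fed mice, with median shifts of -0.29 and -0.32, and left 7 members higher in each diet.

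Ripk3 (ENSMUSG00000022221, chr14:55784995-55788865, minus strand), the kinase that activates Mlkl, was at 0.119, 0.144 and 0.119 FPKM in PF and at 0.255, 0.0965 and 0.205 in PF4hLPS. In ethanol-fed mice it was at 0.255, 0.132 and 0.0755 FPKM after saline and at 0.282, 0.102 and 0.373 after LPS. The groups overlapped in both diets, and no library reached 1 FPKM. Without the filter, the fold change was 0.07, with a 95% interval of -0.15 to 0.30 (limma adjusted p = 0.793), in pair-fed mice. In ethanol-fed mice it was 0.11, with a 95% interval of -0.11 to 0.34 (limma adjusted p = 0.653). Neither test passed, and the intervals give the changes that these values allow on the log2(FPKM + 1) scale.

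Mlkl (ENSMUSG00000012519, chr8:111311797-111338177, minus strand), the necroptosis effector that Ripk3 phosphorylates, was at 1.49, 0.712 and 0.873 FPKM in PF and at 24.7, 22.4 and 27.4 in PF4hLPS. Its values were 0.551, 0.803 and 0.449 in EtOH and 16.8, 25.2 and 24.2 in EtOH4hLPS. The saline and LPS libraries were far apart, and the PF4hLPS libraries were close together. Mlkl rose by 3.69 ± 0.20 (limma adjusted p = 9.68e-08) in pair-fed and by 3.83 ± 0.20 (limma adjusted p = 7.46e-08) in ethanol-fed mice, 24.2 and 36.7 times in mean FPKM. The ratio of Mlkl to Ripk3 FPKM within a library was 4.94 to 12.6 in PF and 97.0 to 232 in PF4hLPS. In EtOH it was 2.16 to 6.10, and in EtOH4hLPS 59.5 to 247. Ripk3 was at only 0.0755 to 0.373 FPKM over the 12 libraries, so these ratios rest on a low and uncertain denominator.

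**Figure D2:**
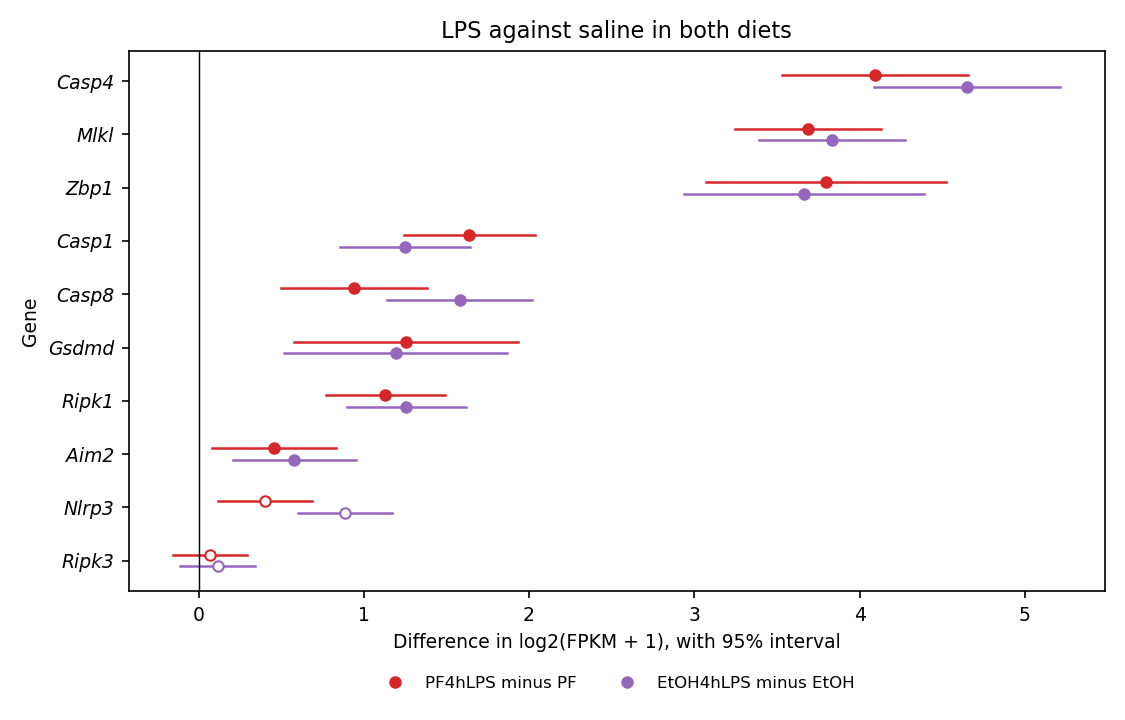
Differences in log2(FPKM + 1) between LPS and saline for each gene in both diets, with 95% intervals; filled points are genes tested and open points come from the fit without a filter on low values. Casp4, Mlkl and Zbp1 lie between 3.66 and 4.65, apart from the other genes, and the intervals of Ripk3 include 0.

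The order of levels changed with LPS. FPKM are per length, but GC content differs between the genes, from 38.1% in Casp4 to 54.4% in Gsdmd. Whether it affected the order was not tested. In PF the order by mean was Casp8 at 23.0 FPKM, Ripk1 at 14.8 and Casp4 at 2.90, each separate from the next. Mlkl, Zbp1, Aim2, Gsdmd and Casp1 followed at 1.03 to 0.712 FPKM with overlapping ranges, then Ripk3 at 0.127 and Nlrp3 at 0.107, which also overlapped. In PF4hLPS, Casp4 led at 64.3 FPKM, separate from Casp8 at 45.2, which was separate from Ripk1 at 33.6. Ripk1, Zbp1 at 27.1 and Mlkl at 24.8 had ranges that overlapped from neighbour to neighbour. Casp1 at 4.38, Gsdmd at 3.55 and Aim2 at 1.56 also overlapped from neighbour to neighbour, and Nlrp3 at 0.467 and Ripk3 at 0.185 were each separate from the gene above.

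The ethanol groups gave a like order with fewer gaps. In EtOH, Casp8 at 17.1 and Ripk1 at 13.3 FPKM overlapped, Casp4 was at 1.62, and the next 5 genes lay between 0.653 and 0.452 with overlapping ranges. In EtOH4hLPS, Casp4 at 64.0, Casp8 at 54.2 and Ripk1 at 33.7 FPKM overlapped from neighbour to neighbour. Mlkl at 22.1 and Zbp1 at 20.1 overlapped each other and were separate from Casp1 at 2.82 and Gsdmd at 2.81 FPKM. Nlrp3 at 1.02 overlapped Aim2 at 1.15 there, and Ripk3 at 0.252 was the lowest.

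The ethanol diet gave no call in these genes. In limma, 0 of the 8 genes tested passed the threshold in any ethanol comparison. Genes with an unadjusted p under 0.05 numbered 1 without LPS (Casp4), 1 with LPS (Casp1) and 2 averaged over both (Casp1 and Aim2). Over all genes tested, 3.69%, 10.8% and 9.45% had an unadjusted p under 0.05 in these comparisons, so 1 of 8 with LPS is near that share. At the adjusted threshold, 0.0284% of all genes passed without LPS, 0.0992% with LPS and 0.319% averaged. These comparisons share libraries with each other and with the LPS comparisons, and so are not independent.

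Without LPS, the fold changes of ethanol over pair-feeding were all negative in the 8 genes tested, from -0.56 to -0.10, and none passed. The sign held under every scaling run. Over all genes tested, 47.8% of the fold changes were above 0. Without the filter, Nlrp3 was at -0.03 and Ripk3 at 0.03. The 8 genes were measured in the same libraries, so their signs are not independent. Casp4 was at -0.56 ± 0.26 (SE), with a 95% interval of -1.13 to -0.00098 and a limma adjusted p of 1. Aim2 was at -0.37 ± 0.17, with an interval of -0.75 to 0.00031 and a limma adjusted p of 1. Casp8 was at -0.42 ± 0.20, with an interval of -0.86 to 0.02; its 3 EtOH libraries lay below the 3 PF libraries, the only non-overlapping groups among the 10 genes, where 12.6% of all genes tested did not overlap in either direction.

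With LPS, 7 of the 8 fold changes were negative and none passed, where 49.4% of all genes tested were above 0. With equal total FPKM, those of Casp4, Gsdmd, Ripk1 and Mlkl turned positive, and with equal protein-coding FPKM those of Casp4 and Ripk1. Casp1 was at -0.50 ± 0.18, with a 95% interval of -0.89 to -0.10, an unadjusted p of 0.0181 and a limma adjusted p of 0.349. EtOH4hLPS library 2 overlapped PF4hLPS library 1 in that gene. The groups did not overlap in Aim2, lower with ethanol at 1.15 ± 0.05 FPKM (SD, n = 3) against 1.56 ± 0.13, or in Nlrp3, higher at 1.02 ± 0.28 FPKM against 0.467 ± 0.132. Among all genes tested 10.9% did not overlap in either direction. The Nlrp3 difference was 0.45 ± 0.13 without the filter, with an unadjusted p of 0.00526 and a limma adjusted p of 0.456. Casp4, Ripk1 and Mlkl were at -0.01, -0.02 and -0.18, with intervals of -0.57 to 0.56, -0.38 to 0.34 and -0.62 to 0.26.

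**Figure D3:**
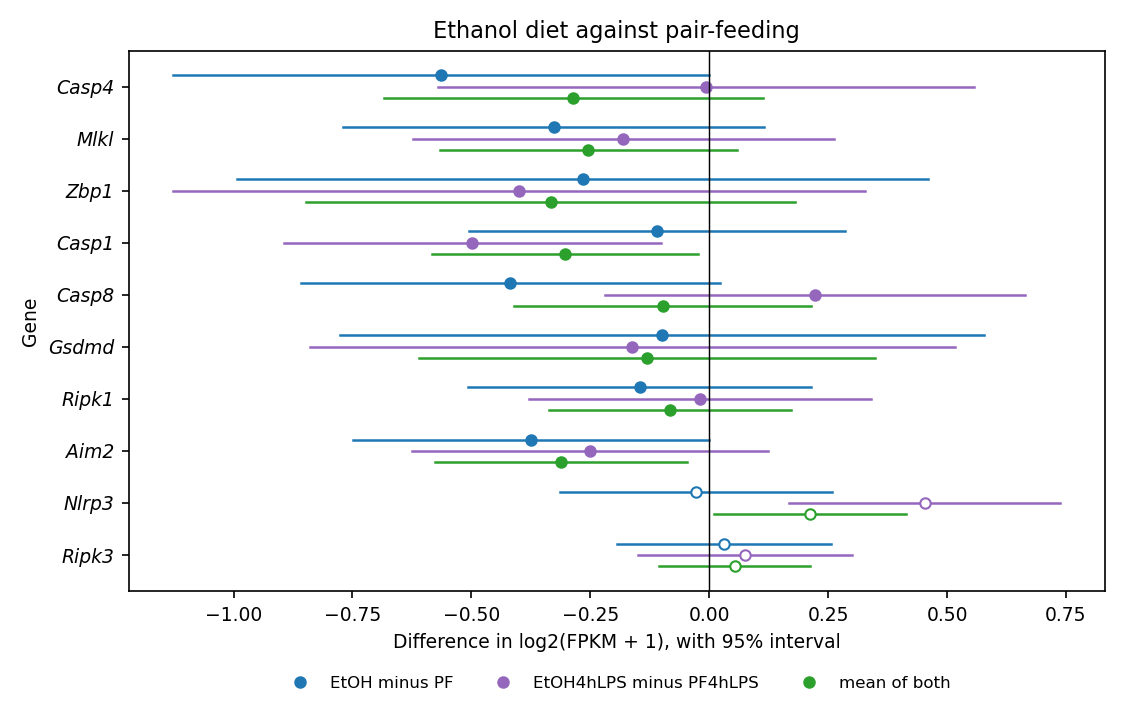
Differences in log2(FPKM + 1) of ethanol diet from pair-feeding in saline mice, in LPS mice and as their mean, with 95% intervals; open points come from the fit without a filter on low values. Averaged over both, the 8 genes tested lie between -0.33 and -0.08, and none passed the adjusted threshold; Casp8 and Ripk1 turn positive with equal total FPKM, and Ripk1 with equal protein-coding FPKM.

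The LPS response of a gene was compared between diets by the interaction term. In limma, 0 of the 8 genes passed, and 1, Casp8, had an unadjusted p under 0.05. The rise of Casp8 was larger by 0.64 ± 0.29 in ethanol-fed mice, with a 95% interval of 0.02 to 1.26, an unadjusted p of 0.0449 and a limma adjusted p of 0.988. Over all genes tested, 4.37% had an unadjusted p under 0.05 and 0.0284% passed the adjusted threshold. For Casp4 the difference was 0.56, with an interval of -0.24 to 1.35, and for Casp1 -0.39, with an interval of -0.95 to 0.17. Nlrp3, without the filter, was at 0.48 ± 0.18, with an unadjusted p of 0.0241 and a limma adjusted p of 0.885.

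Genes that work with this set were taken from 5 lists, and only those at 1 FPKM or more in 3 libraries were tested. Among 16 inflammasome sensors and adaptors, 6 were tested. After LPS, 2 rose and 0 fell under pair-feeding, with a median fold change of 0.45; 1 rose and 0 fell under ethanol, with a median of 0.15. The count under ethanol is near the 10.7% of all genes tested that were higher. Pycard, the adaptor that joins Nlrp3 and Aim2 to Casp1, rose by 1.89 ± 0.46 (limma adjusted p = 0.0140) in pair-fed and by 1.46 ± 0.46 (limma adjusted p = 0.0487) in ethanol-fed mice. Naip2, which detects bacterial secretion proteins, rose by 0.48 in pair-fed mice only just past the threshold (limma adjusted p = 0.0489) and was at 0.24 in ethanol-fed mice (limma adjusted p = 0.362). Nek7, a partner of Nlrp3, was at 0.08 and -0.04, and Txnip at 0.50 and 1.38, with no call in either diet. Nlrp6 was at -0.59 and -0.50, also without a call. The sensors Mefv, Nlrp1a and Nlrp1b were among the 10 too low to be tested.

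Of 15 pyroptosis executors and cytokines, 14 matched and 12 were tested. After LPS, 9 rose and 0 fell under pair-feeding, with a median of 2.52; 8 rose and 0 fell under ethanol, with a median of 2.65. The guanylate-binding proteins, which coat cytosolic bacteria and LPS and help Casp4 to sense them, had the largest fold changes of the list. Gbp2 rose by 6.70 and 6.57, Gbp5 by 6.30 and 6.59, Gbp7 by 5.70 and 4.98 and Gbp3 by 5.63 and 5.52 in pair-fed and ethanol-fed mice. Gbp2 went from 4.44 ± 1.35 FPKM (SD, n = 3) in PF to 555 ± 43 in PF4hLPS. Ninj1, which ruptures the membrane of dying cells, was at 0.52 and 0.66 with no call in either diet. Il1b, the gene of the cytokine that Casp1 matures, rose by 2.98 and 3.53, and Il18 was at 1.29 (limma adjusted p = 0.00796) and 0.55 (limma adjusted p = 0.238); both were picked for their role after their values were seen.

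Of 28 genes of the TNF receptor complex and necroptosis control, 27 were tested. Under pair-feeding 13 rose and 0 fell after LPS, with a median of 0.80; under ethanol 14 rose and 0 fell, with a median of 0.62. Tnfaip3, the ubiquitin editor A20, rose by 4.28 and 4.70, the inhibitor of apoptosis Birc3 by 3.77 and 4.41, and Birc2 by 2.71 and 2.60. Cflar, the partner that limits Casp8, rose by 1.75 and 1.86. The death receptor Fas rose by 3.48 and 3.61.

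Among 21 apoptosis genes, 20 were tested. Under pair-feeding 6 rose and 2 fell, with a median of 0.29, and under ethanol 7 rose and 2 fell, with a median of 0.27. Bcl2a1b and Mcl1, which restrain apoptosis, rose by 1.97 and 1.73 in pair-fed mice. Bcl2l1, also a restraint, rose by 1.17, and Cycs was at 0.67 with no call. All 12 genes of the ESCRT-III machinery, which removes damaged stretches of plasma membrane, were tested. In each diet 2 rose and 1 fell, with medians of 0.20 and 0.36. Chmp4b rose by 1.45 and 1.62, Chmp2b rose by 1.33 and 1.05, and Chmp6 fell by 1.31 and 1.25, in pair-fed and ethanol-fed mice. These counts are near the shares of all genes tested that were called. Chmp3 and Chmp5 were at 0.61 and 0.38 in pair-fed mice with no call. No gene of the 5 lists passed in any ethanol comparison or in the interaction.

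**Figure D4:**
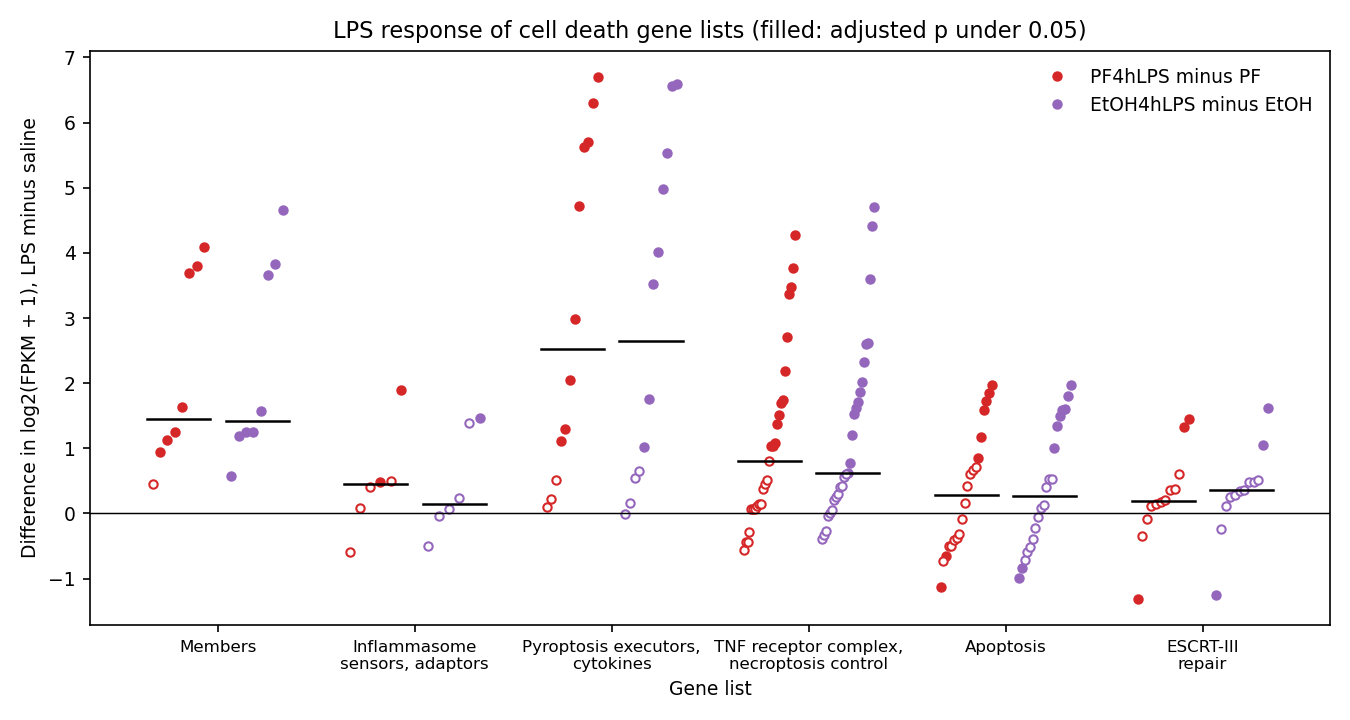
Differences in log2(FPKM + 1) between LPS and saline, 1 point per gene tested, for the members and 5 lists of related genes in both diets; filled points have a limma adjusted p under 0.05 and bars are medians. The executors and cytokines reach 6.70 with Gbp2, while the ESCRT-III genes lie between -1.31 and 1.62.

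Some markers of cells that blood could bring moved with LPS. The summed FPKM of 12 neutrophil markers was 3.91 to 5.74 in PF and 188 to 426 in PF4hLPS, 3.74 to 5.81 in EtOH and 171 to 262 in EtOH4hLPS. Most of these sums came from S100a8 and S100a9. They were at 68.9 and 103 FPKM of 188 in PF4hLPS library 1, and at 173 and 233 of 426 in library 3. S100a8 rose by 5.42 and 5.03 and S100a9 by 5.22 and 5.19, in pair-fed and ethanol-fed mice. Of 6 neutrophil markers tested, 5 were called higher in each diet, but 4 of the 6 were under 1 FPKM in every saline library and so were tested because they were high after LPS. From PF to PF4hLPS, mean FPKM were 0.152 and 6.73 for Retnlg, 0.0131 and 3.50 for Ngp, 0.0107 and 1.53 for Mmp8, 0.199 and 1.14 for Cxcr2 and 0 and 0.815 for Camp. Csf3r was at 0.203 to 0.240 FPKM in PF and 0.352 to 1.38 in PF4hLPS. Mmp9, which was not tested, overlapped between saline and LPS in both diets. It was at 0.135 to 0.264 FPKM in PF and 0.0875 to 0.422 in PF4hLPS. In ethanol-fed mice it was at 0.227 to 0.316 after saline and 0 to 0.354 after LPS. Ly6g, Mpo and Elane were at 0 in 1 or more libraries of every group, with group means of at most 0.303 FPKM. Of 10 monocyte and macrophage markers tested, 3 rose and 1 fell under pair-feeding, while under ethanol 0 rose and 1 fell. Over the 13 such markers listed, summed FPKM was 22.6 to 32.4 in PF and 23.4 to 66.1 in PF4hLPS. It was 20.3 to 26.8 in EtOH and 18.0 to 28.9 in EtOH4hLPS. Lyz2 made up 43.5 of the 66.1 in PF4hLPS library 3, and was at 6.60 to 10.3 FPKM in PF and 12.6 to 43.5 in PF4hLPS. Ccr2 was lower after LPS in both diets, at 3.23 to 4.43 FPKM in PF and 1.02 to 1.54 in PF4hLPS. So was Cx3cr1, which was not tested, at 0.812 to 1.14 FPKM in PF and 0.0162 to 0.0911 in PF4hLPS. The leukocyte marker Ptprc was at 0.57 and 0.33 with no call. None of 10 lymphocyte markers was tested, with sums of 1.04 to 2.72 FPKM. Endothelial markers went the other way, with 7 of 9 lower and 1 higher in pair-fed and 6 lower and 1 higher in ethanol-fed mice, and sums of 110 to 146 in PF and 47.2 to 58.4 in PF4hLPS, 125 to 147 in EtOH and 57.1 to 76.0 in EtOH4hLPS. The part of these cells in the rise of Casp4, Zbp1, Mlkl, Nlrp3 and the other genes was not tested.

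Genes with the most similar pattern were found by the root mean square difference of log2(FPKM + 1) over the 12 libraries, each gene centred on its own mean, among 11666 protein-coding genes. For Casp4 they were Gbp4 at 0.29, Rtp4 at 0.32 and Vcam1 at 0.35, where the median over all candidates was 2.24. For Mlkl they were Tor3a at 0.23, H2-Q4 at 0.24 and Fas at 0.25, and for Zbp1 Mt1 at 0.28, Psmb9 at 0.29 and Plac8 at 0.30. Ripk1 was nearest to Azi2 at 0.11 and Casp8 to Nub1 at 0.18. Casp1 was nearest to Ms4a4d, Gsdmd to Apol9a, at 0.15 and 0.14, and Aim2 to Kcne3 at 0.13. Nlrp3 and Ripk3, both under the filter, were nearest to Fth1 and Atp9b at 0.13 and 0.08. Their medians over all candidates were 0.50 and 0.35. The root mean square deviation of each from its own mean was 0.38 for Nlrp3 and only 0.11 for Ripk3, against 2.21 for Casp4. Distances are therefore not comparable between members, and that of Ripk3 says little about a shared pattern. Among the members, Zbp1 and Mlkl were each other's nearest at 0.38, as were Casp8 and Ripk1 at 0.19. These are descriptions over libraries that share the LPS contrast and carry no test.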

How the data were processed

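The authors deposited 1 table of FPKM for 47719 Ensembl genes in 12 libraries, 3 per group. The submitters' processing notes list build mm10, Cuffnorm, Cuffdiff 2.1.1, Cufflinks 2.2.1, TopHat2 2.0.4 and FastQC 0.10.1. Strand setting and annotation release: not given in the sources used here. Per the labels' protocols, libraries were made from total RNA with a stranded kit that removes ribosomal RNA. The FPKM summed to between 1005219 and 1935824 per library. The depth of a library in fragments is unknown, so no count model was run and no counting interval is given.

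Symbols and coordinates came from GENCODE M21 (GRCm38), which matched 47305 genes; promoters came from RefSeq (GRCm38.p6). Group means of log2(FPKM + 1) were fitted with limma 3.58.1 in R 4.3.3, with trended, robust moderated variances. The 14109 genes that reached 1 FPKM in 3 or more libraries were tested. Tests were two-sided, with Benjamini-Hochberg adjustment per contrast over 6 contrasts: LPS in each diet, ethanol without LPS, with LPS and averaged, and the interaction. With 3 libraries a group, no permutation p could go below 0.1. The fit was tested on simulated data. The members and lists were chosen with earlier results of these data known. All 10 members are named; from each of the 5 related lists, the 3 called genes with the largest fold change in pair-fed mice and then the most abundant, up to 5; and for each member up to 3 genes of nearest pattern. Of 160 list genes, 159 matched by symbol. A few items that this rule or the promoter search covers are not reported here. Alternatives were other pseudocounts, filters, scalings and variance models, a replicate block, and leaving out libraries.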

Additional observations from a re-analysis of the deposited data

How the results depend on the processing

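Of the counts of members called higher or lower, those in 2 settings moved by over 1.5 times. With equal total FPKM, 4 members were higher after LPS in pair-fed mice instead of 7. With a filter of 5 FPKM, 5 were higher in ethanol-fed mice instead of 8, since fewer members were tested. No pairing of libraries by replicate number was seen. Deviations of same-numbered libraries correlated at -0.206 to 0.279 over 18 pairs, with 5 over 0.1, and 3 of 12 libraries correlated best with their own number. With 3 libraries a group, these values cannot exclude a pairing. With a replicate block, 7 members were higher after LPS in each diet and 0 in every ethanol comparison and the interaction; over all genes the block gave 1454 higher and 829 lower in pair-fed and 1403 and 781 in ethanol-fed mice. Of 1118 values of single members under alternatives, 1054 kept their direction and side of the threshold, 24 lost a call, 40 without a call changed sign and 0 called values changed sign. The 24 lost calls were those of Gsdmd and Aim2, and of Casp8 and Ripk1 with equal total FPKM. Fold changes after LPS over all alternatives were 3.64 to 4.49 for Casp4, 3.29 to 4.52 for Mlkl and 3.38 to 4.70 for Zbp1 in pair-fed mice, all called. Leaving out PF4hLPS library 2, EtOH4hLPS library 1 and PF library 1 together, chosen after seeing the data, kept Gsdmd at 1.58 in pair-fed mice. Over all genes, the lower calls in pair-fed mice were 972, against 427 with a filter of 5 FPKM, 568 with the compared groups alone, 470 without PF library 2 and 500 without PF library 3. In ethanol-fed mice they were 902, against 351 with that filter, 525 to 571 without 1 of EtOH library 1, 2 or 3 or EtOH4hLPS library 2 or 3, and 1450 without those 3 libraries. Nlrp3 and Ripk3 have values only without a filter.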
